A study of Homo sapiens with 8 samples.

Results

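The genes described here are 10 regulators of the passage from G1 to S phase: the D-type cyclins CCND1, CCND2 and CCND3, the E-type cyclins CCNE1 and CCNE2, the kinases CDK4, CDK6 and CDK2, and the CDK inhibitors CDKN1A and CDKN1B. They were chosen by name, with earlier results of these arrays known. Each was read from the transcript cluster, a probe set that covers 1 locus, that carries its symbol alone. All 10 were measured, each by 1 transcript cluster, among 22411 genes in all. The cultures were SK-N-MC, an established Ewing sarcoma line, in EMEM with fetal bovine serum. The knockdown group is 4 cultures given pooled siRNAs to both YAP1 and TAZ, and the control group is 4 cultures given a non-targeting siRNA. Both groups were transfected with Viromer Blue at a final 10 nM and collected at 72 h, and no untransfected cultures are compared here. The cultures of both groups were separate replicates set up side by side in 1 cell line with 1 siRNA mix, so the spreads given do not cover repeat experiments, other lines or other siRNAs.

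Cyclins are the activating subunits of cyclin-dependent kinases. D-type cyclins bind CDK4 and CDK6 early in G1 and start the phosphorylation of the retinoblastoma family, the pocket proteins that hold back E2F transcription factors. E2F factors then drive transcription of genes for S phase, the E-type cyclins among them, and cyclin E with CDK2 completes the phosphorylation. CDKN1A (p21) and CDKN1B (p27) bind and restrain cyclin-CDK2 complexes. The Ewing sarcoma driver is a fusion protein, in most cases EWS-FLI1, and high CCND1 is a known feature of it. YAP1 and TAZ (the product of WWTR1) are co-activators that bind DNA through TEAD factors and are known for promoting proliferation in many cell types.

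The targeted genes were lower in the knockdown arrays, YAP1 at 40.4% and WWTR1 at 65.1% of control on the linear scale. YAP1 read 6.27, 6.41, 6.42 and 6.4 with YAP1/TAZ siRNA, against 7.64, 7.72, 7.71 and 7.66 with control siRNA, all on the log2 signal scale. WWTR1 read 5.74, 5.91, 5.91 and 5.86 with YAP1/TAZ siRNA, against 6.52, 6.39, 6.42 and 6.57 with control siRNA. Neither gene's groups overlapped, and an exact 2-sided permutation test gave p = 0.0286 for both, as low as it can go with 4 arrays a group. Over all genes, YAP1/TAZ siRNA replicate 2 and control replicate 4 stood apart, with scores of 27.4 and 28.4 on the first principal component, against −14.7 to 3.42 for the rest. Array medians lay between 4.34 and 4.49. Of 8 markers of Ewing sarcoma listed, 7 were measured, with means from 5.14 to 13.4. LIPI, a lipase gene among them, fell by 0.63 on the log2 scale (SE 0.070, limma adjusted p = 0.0136), with no overlap between groups. The other 6 did not pass. PRKCB, a protein kinase C gene, was higher with YAP1/TAZ siRNA by 0.46 (SE 0.090, limma adjusted p = 0.102), also with no overlap. Of the 7, 2 did not overlap, beside 6.22% of all genes. Means were 3.51 to 4.49 for 4 blood cell markers and 3.86 to 5.41 for 5 epithelial markers. They were 3.37 to 6.01 for 4 neuroblastoma markers and 4.87 to 7.91 for 5 fibroblast markers. None of these 18 markers of other cell types passed limma's adjusted threshold. Of them, 3 had an unadjusted p under 0.05, beside 10.3% of all genes.

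Of the 10 genes, CCNE2 alone passed a limma adjusted p under 0.05, and it was higher with YAP1/TAZ siRNA. No member fell by that test. Among all genes tested 48 passed, which is 0.214%; 30 of these were higher (0.134%) and 18 lower, while after quantile normalization 37 were higher and 35 lower. At an unadjusted p under 0.05 there were 5 of the 10, CCND1, CCND3, CCNE1, CCNE2 and CDK6, where 10.3% of all genes reached it. The knockdown and control arrays did not overlap for 4 of the 10, with CCND1, CCND3 and CCNE2 above and CDK6 below. Over all genes 6.22% did not overlap, 4.19% with every knockdown array above and 2.03% with every knockdown array below. The median log2 difference was 0.13 over the 10 and 0.0075 over all genes, and 9 of the 10 lay above 0, as did 53.7% of all genes. These 10 genes were named with earlier results of these arrays known, so the counts describe them and support no statement about the group. In RNA from whole cultures, fewer cells of a type, or in a cell cycle phase, and less RNA per cell cannot be told apart.

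**Figure D1:**
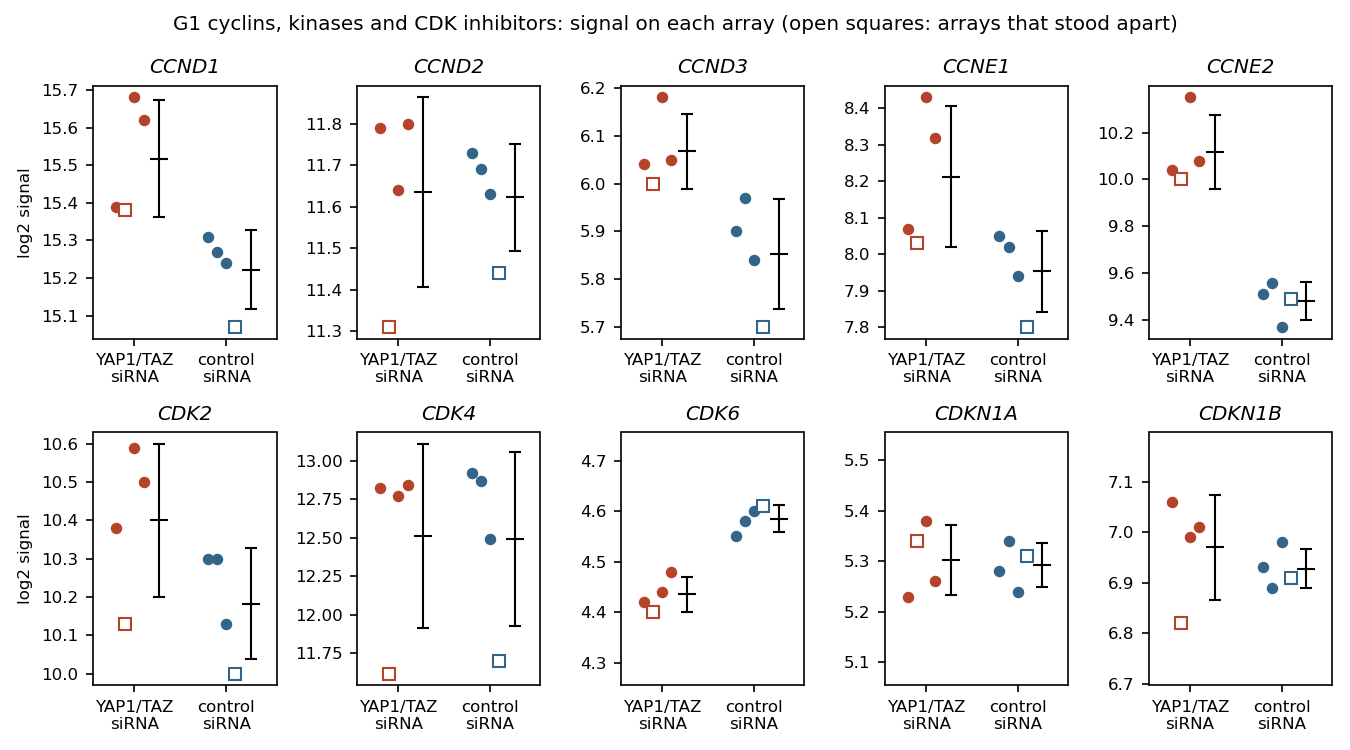
Log2 signal of each gene on each array, YAP1/TAZ siRNA on the left of each panel and control siRNA on the right, with bars for mean ± SD of 4 arrays; open squares are YAP1/TAZ siRNA replicate 2 and control replicate 4, and each panel has its own axis. CCNE2 shows the widest gap between groups, with every knockdown array at 10.00 or higher and every control array at 9.56 or lower, while for CDK4 the open squares lie below every other array.

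Among the E-type cyclins, which activate CDK2 at the entry to S phase, CCNE2 rose. CCNE2 read 10.04, 10.00, 10.35 and 10.08 with YAP1/TAZ siRNA, against 9.51, 9.56, 9.37 and 9.49 with control siRNA. The lowest knockdown array lay above the highest control array, so the groups did not overlap. The means were 10.12 ± 0.16 and 9.48 ± 0.081 (SD, n = 4 per group), a difference of 0.64 on the log2 scale (SE 0.084, 95% interval 0.44 to 0.83; limma adjusted p = 0.0309). On the linear scale the knockdown level was 155% of control. Within the pair of arrays that stood apart the difference was 0.51, and over the other 6 arrays it was 0.68.

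The size of the CCNE2 difference held while its call did not. Leaving out 1 array at a time gave differences from 0.56 to 0.67. The limma adjusted p was 0.117, 0.101, 0.0941 and 0.0825 without control replicates 1, 2, 3 and 4. It was 0.0855, 0.0231, 0.0345 and 0.111 without YAP1/TAZ siRNA replicates 1, 2, 3 and 4. CCNE2 thus passed in 2 of the 8 fits with 7 arrays. It was 0.037 without both arrays that stood apart and 0.0164 with those arrays as a block. Over 18 alternative treatments of the data it passed in 10, with an adjusted p from 0.00764 to 0.247.

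**Figure D2:**
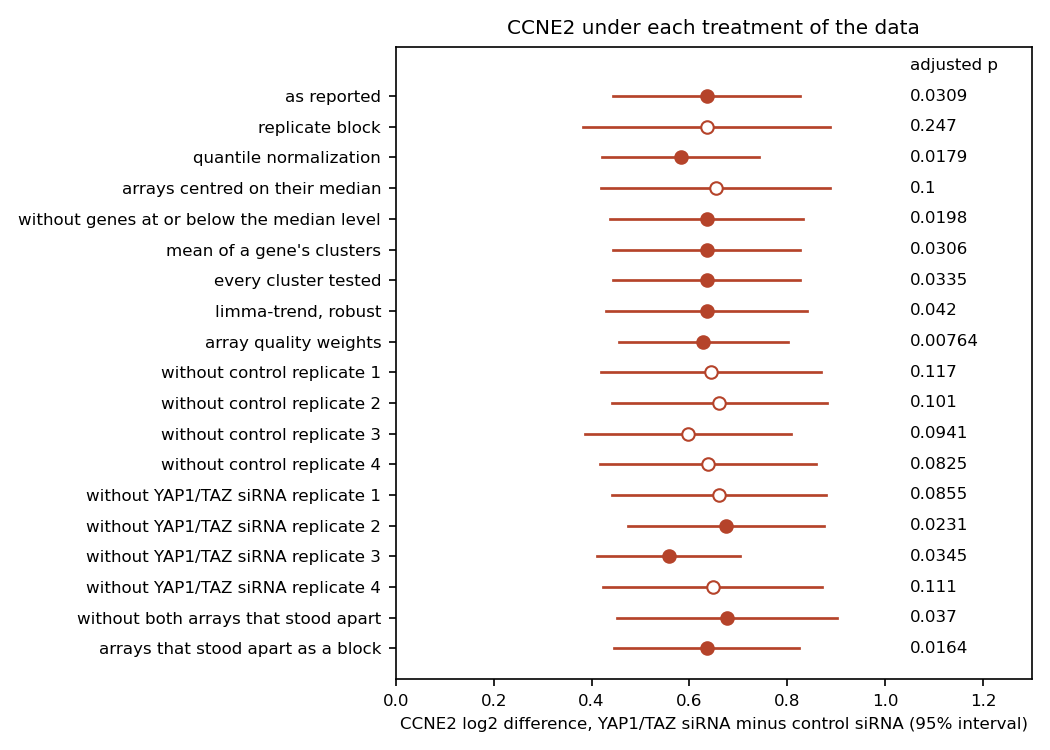
CCNE2 log2 difference, YAP1/TAZ siRNA minus control siRNA, with its 95% interval under each treatment of the data; filled points have a limma adjusted p under 0.05, which is printed at the right. The difference stays between 0.56 and 0.68 in every line, and the points are open where the adjusted p lies between 0.0825 and 0.247.

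CCNE1, the other E-type cyclin, read 8.07, 8.03, 8.43 and 8.32 with YAP1/TAZ siRNA, against 8.05, 8.02, 7.94 and 7.80 with control siRNA. The groups overlapped, since knockdown replicate 2 lay just below control replicate 1. The difference was 0.26 (SE 0.10, 95% interval 0.030 to 0.49), and it did not pass over all genes (limma adjusted p = 0.413).

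CCND1, the D-type cyclin that is itself a known feature of Ewing sarcoma, ranked at percentile 99.5 of all genes by mean array signal, which is no rank of transcript number. It read 15.39, 15.38, 15.68 and 15.62 with YAP1/TAZ siRNA, against 15.31, 15.27, 15.24 and 15.07 with control siRNA. The knockdown arrays all lay above the controls, the nearest by less than the spread within either group. The difference was 0.29 (SE 0.088, 95% interval 0.095 to 0.49; limma adjusted p = 0.265), and the means were 15.52 ± 0.15 and 15.22 ± 0.11 (SD, n = 4 per group). Over 18 alternatives its adjusted p ran from 0.0701 to 0.572, and that lowest value was the lowest reached by any of the 9 genes that did not pass.

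CCND2, which can replace CCND1 as a partner of CDK4 and CDK6, read 11.79, 11.31, 11.64 and 11.80 with YAP1/TAZ siRNA, against 11.73, 11.69, 11.63 and 11.44 with control siRNA. The groups overlapped, and the lowest reading of each came from an array that stood apart. The difference was 0.013 (SE 0.12, 95% interval −0.25 to 0.28; limma adjusted p = 0.986), and its sign turned to −0.0348 after quantile normalization.

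CCND3, the most broadly expressed D-type cyclin, read 6.04, 6.0, 6.18 and 6.05 with YAP1/TAZ siRNA, against 5.90, 5.97, 5.84 and 5.70 with control siRNA. The groups did not overlap, with 0.03 between the nearest arrays. The difference was 0.21 (SE 0.071, 95% interval 0.054 to 0.38; limma adjusted p = 0.324). Promoter windows of 250 bases before the start site were taken from RefSeq (GRCh38.p14), which gave 9 windows for 6 of the genes: CCND3, CCNE1, CDK4, CDK6, CDKN1A and CDKN1B. They were searched on both strands for GGAATG, the core letters bound by TEAD factors, and for TTTCCCGC and TTTGGCGC, forms of the E2F site. Of the 9 windows 1 held GGAATG, and it is shown because TEAD factors are the DNA-binding partners of the proteins knocked down. It is 1 of 3 CCND3 windows (chr6:41941809-41942058, minus strand), and the capitals mark the match, read on the opposite strand, whose first base lies 41 bases before the start site.
CCND3: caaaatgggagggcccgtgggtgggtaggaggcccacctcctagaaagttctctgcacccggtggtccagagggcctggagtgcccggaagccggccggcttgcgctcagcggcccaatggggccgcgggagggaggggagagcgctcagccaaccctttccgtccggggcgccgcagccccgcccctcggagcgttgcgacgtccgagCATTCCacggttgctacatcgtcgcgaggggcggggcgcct
GGAATG was present in 11.9% of all 35116 windows of this length. TTTCCCGC was in 0 of the 9 windows and 1.39% of all, and TTTGGCGC in 0 of the 9 and 0.55% of all. These matches describe letters in the windows, and binding was not measured.

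CDK4, the catalytic partner of the D-type cyclins, varied more between replicates than between siRNAs. It read 12.82, 11.62, 12.77 and 12.84 with YAP1/TAZ siRNA, against 12.92, 12.87, 12.49 and 11.70 with control siRNA. The low readings were YAP1/TAZ siRNA replicate 2 and control replicate 4, the arrays that stood apart, and they lay 1.19 and 1.06 below the mean of the other 3 arrays of their groups. Its SD of 0.60 in knockdown arrays exceeded that of 99.2% of genes, and its SD of 0.56 in control arrays exceeded that of 99.3%. The difference was 0.018 with a 95% interval from −0.76 to 0.79 (limma adjusted p = 0.993), so this comparison could not show a change of CDK4 within that range. Over the other 6 arrays the difference was 0.050, and within the pair it was −0.08. The CDK4 promoter window is shown for the gene whose readings moved most with those arrays (chr12:57752311-57752560, minus strand). The capitals mark CACGTG, the E-box read by basic helix-loop-helix factors and a further motif searched in all 9 windows, at 216, 196 and 101 bases before the start site.
CDK4: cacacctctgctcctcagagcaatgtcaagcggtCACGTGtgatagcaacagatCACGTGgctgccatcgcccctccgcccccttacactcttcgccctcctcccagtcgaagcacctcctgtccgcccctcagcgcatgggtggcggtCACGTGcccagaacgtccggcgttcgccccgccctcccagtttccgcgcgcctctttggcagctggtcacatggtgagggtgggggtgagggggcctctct
CACGTG reads the same on both strands and was present in 6.34% of all windows and in 1 of the 9.

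CDK6, the other partner of the D-type cyclins, was the member whose readings were lower with the knockdown. CDK6 read 4.42, 4.4, 4.44 and 4.48 with YAP1/TAZ siRNA, against 4.55, 4.58, 4.60 and 4.61 with control siRNA. The groups did not overlap, but all 8 readings lay below 5.03, the median level of the genes tested. The difference was −0.15 (SE 0.045, 95% interval −0.25 to −0.047; limma adjusted p = 0.271). The SD of CDK6 was 0.034 in knockdown and 0.026 in control arrays, wider than those of 4.43% and 3.85% of genes. The deposited table gives no background level to set it against, and the gene drops out when dim genes are left out.

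CDK2, the partner of the E-type cyclins, read 10.38, 10.13, 10.59 and 10.50 with YAP1/TAZ siRNA, against 10.30, 10.30, 10.13 and 10.00 with control siRNA. The groups overlapped through knockdown replicate 2. The difference was 0.22 (SE 0.11, 95% interval −0.033 to 0.47; limma adjusted p = 0.555). Over the 6 arrays that did not stand apart it was 0.25, and within the pair it was 0.13.

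The inhibitors showed the smallest differences beside CCND2 and CDK4. CDKN1A, the p53-induced inhibitor p21, read 5.23, 5.34, 5.38 and 5.26 with YAP1/TAZ siRNA, against 5.28, 5.34, 5.24 and 5.31 with control siRNA. The ranges lay over each other, and the difference was 0.010 (SE 0.054, limma adjusted p = 0.979). Its 95% interval ran from −0.11 to 0.13, so a larger shift in array signal lay outside it in either direction. CDKN1A averaged 5.30, at percentile 53.4 of all genes and within the 3.86 to 5.41 of the epithelial markers. The deposited table gives no background level, so the interval bounds array signal and not necessarily the transcript. CDKN1B, the inhibitor p27, whose protein is largely set by degradation, read 7.06, 6.82, 6.99 and 7.01 with YAP1/TAZ siRNA, against 6.93, 6.89, 6.98 and 6.91 with control siRNA. Again the groups overlapped, with the highest and the lowest of the 8 readings both in the knockdown group. The difference was 0.043 (SE 0.062, 95% interval −0.098 to 0.18; limma adjusted p = 0.894), and it was −0.0041 after quantile normalization. Without single arrays it ran from 0.0125 to 0.0925.

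The arrays that stood apart over all genes were often the lowest of their group here. How often they were lowest over all genes was not counted, so the counts below show nothing particular to these 10. YAP1/TAZ siRNA replicate 2 was the lowest of its group for 9 of the 10 genes and control replicate 4 for 6, and both were lowest for CCND1, CCND2, CCND3, CCNE1, CDK2 and CDK4. For CCNE2, control replicate 4 lay 0.010 above the mean of the other controls. YAP1/TAZ siRNA replicate 3 was the highest of its group for 6 of the 10. With those arrays as a block, CCNE2 was again the 1 member that passed, with 6 at an unadjusted p under 0.05, where 1.96% of all genes passed and 17% had such a p.

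Related members were set against each other within each array, to ask whether they changed unequally. The exact 2-sided permutation test was run on 6 pairs. CCNE2 minus CCNE1 was 1.97, 1.97, 1.92 and 1.76 on the YAP1/TAZ siRNA arrays, against 1.46, 1.54, 1.43 and 1.69 on the control arrays. The groups did not overlap, and the CCNE2 difference exceeded that of CCNE1 by 0.38 (exact permutation p = 0.0286, the lowest possible here; adjusted over the 6 pairs, p = 0.171). CCND1 minus CCND2 was 0.28 higher in the knockdown arrays (exact permutation p = 0.0857, adjusted 0.257). Its knockdown arrays spread from 3.60 to 4.07, and the control arrays lay within 3.58 to 3.63. The exact p was 0.257 for CCND1 against CCND3, 0.171 for CCND2 against CCND3, 0.514 for CDK4 against CDK6 and 0.714 for CDKN1A against CDKN1B. After adjustment 0 pairs passed, and 1 had an unadjusted exact p under 0.05. With 4 arrays a group, 1 pair alone at the lowest possible p adjusts to 0.171, so it could not pass. The adjusted test therefore cannot decide whether CCNE2 and CCNE1 changed unequally, and unequal change was not established for any pair. The quantity tested is the change of each within-array difference, and its size on an array says nothing of which transcript is more abundant.

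**Figure D3:**
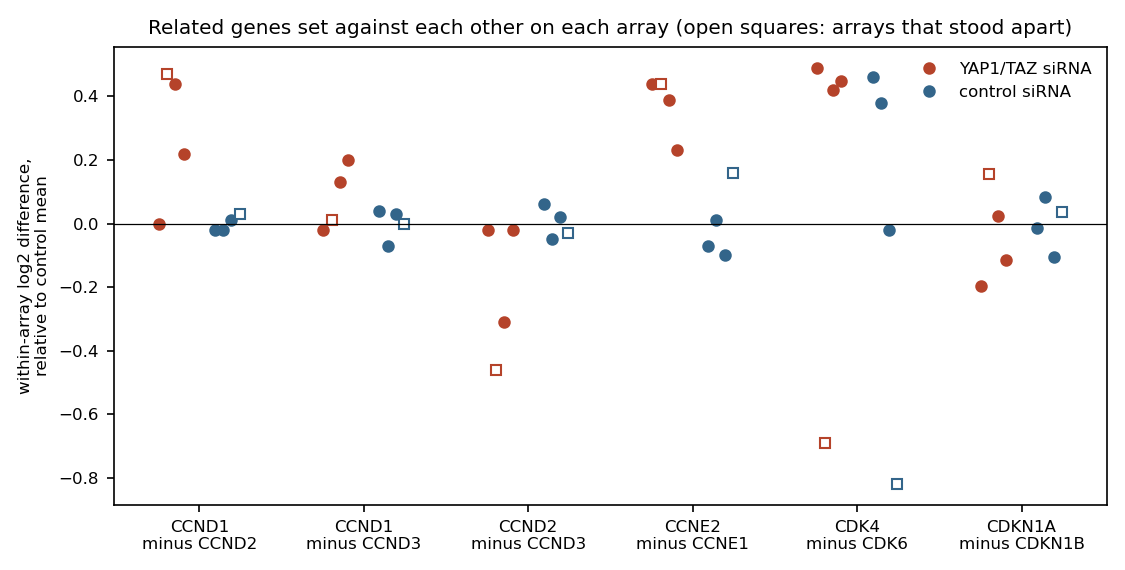
Within-array log2 difference between related genes on each array, relative to the mean of the control arrays, with YAP1/TAZ siRNA left of control siRNA for each pair and open squares for the arrays that stood apart. The CCNE2 minus CCNE1 points of the knockdown arrays all lie above those of the control arrays, and the other pairs overlap.

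Further genes of the pathway were taken from lists of regulators and targets of these cyclins and kinases, later cyclins with their kinase, and p53 targets, and 44 of 47 were measured. Of these 44, E2F2 rose and the other 43 did not pass over all genes, where 0.214% of all genes passed. At an unadjusted p under 0.05 there were 12, beside 10.3% of all genes, and 30 had a difference above 0, beside 53.7% of all genes. Their median difference was 0.060, and that of all genes 0.0075. E2F2, an activator E2F that drives entry to S phase, read 7.74, 7.69, 7.78 and 7.83 with YAP1/TAZ siRNA, against 7.11, 7.1, 7.0 and 6.84 with control siRNA. The groups did not overlap, and the difference was 0.75 (SE 0.071, limma adjusted p = 0.00561). With each array centred on its median its adjusted p was 0.0522. The 18 alternatives gave it adjusted p-values between 0.00124 and 0.128.

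All 10 measured E2F and DP factors had a difference above 0, with a median of 0.13, beside 53.7% of all genes above 0. After quantile normalization E2F1 (−0.0092), E2F5 (−0.039) and TFDP2 (−0.014) lay below 0. Of the 10, 1 passed, E2F2, where 0.214% of all genes passed. E2F6, a repressor of the family, differed by 0.29 (SE 0.062, limma adjusted p = 0.121) and E2F7, a repressor induced in S phase, by 0.48 (SE 0.15, limma adjusted p = 0.278). E2F1, the activator most often tied to CCNE1, differed by 0.040 (SE 0.13, limma adjusted p = 0.961). The 3 pocket proteins did not pass and lay on both sides of 0. RB1, the retinoblastoma protein gene, differed by −0.40 (SE 0.11, limma adjusted p = 0.224), RBL2 (p130) by −0.37 (SE 0.11, adjusted p = 0.261) and RBL1 (p107), an E2F target, by 0.32 (SE 0.11, adjusted p = 0.367). Each of the 3 had an unadjusted p under 0.05, beside 10.3% of all genes.

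Of the 4 other CDK inhibitors measured, 0 passed by limma and 1 had an unadjusted p under 0.05, CDKN2D, a p19 inhibitor of CDK4 and CDK6, with 0.17 (SE 0.070, limma adjusted p = 0.424). CDKN2A, the locus of p16 and ARF, differed by −0.010 (SE 0.061). Among 6 genes for kinases, a phosphatase and CDK-activating kinase subunits that act on the CDKs, 0 passed by limma and 2 had an unadjusted p under 0.05. WEE1, which places an inhibitory phosphate on CDK1 and CDK2, differed by 0.29 (SE 0.057, limma adjusted p = 0.1), and CDC25A, which removes it, by 0.21 (SE 0.058, adjusted p = 0.213). Of the 44 pathway genes 7 did not overlap between groups, beside 6.22% of all genes. Every knockdown array lay above every control array for WEE1, CDC25A, E2F2, E2F6, E2F7 and CUL1, and below for RBL2.

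Among 8 parts of the ubiquitin ligases that degrade G1 cyclins and inhibitors, 0 passed by limma and 1 had an unadjusted p under 0.05. This was CUL1, the scaffold of SCF ligases, with 0.17 (SE 0.056, limma adjusted p = 0.316). SKP2, which directs CDKN1B to degradation, differed by −0.075 (SE 0.19), and FBXW7, which does so for cyclin E, by 0.15 (SE 0.073). Of the 5 cyclins and kinase of later phases, 0 passed and 1 had an unadjusted p under 0.05, CCNB1, the mitotic cyclin B1, with 0.17 (SE 0.069, limma adjusted p = 0.449). CCNA2, the cyclin of S and G2 phase, differed by 0.28 (SE 0.13). Of 8 p53 targets measured beside CDKN1A, 0 passed by limma, 1 had an unadjusted p under 0.05 and 5 lay below 0. The smallest p among them was that of SESN1, a stress-induced inhibitor of growth signalling, with 0.16 (SE 0.065, limma adjusted p = 0.444). For these lists too, the shares over all genes were 10.3% with an unadjusted p under 0.05 and 0.214% that passed.

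**Figure D4:**
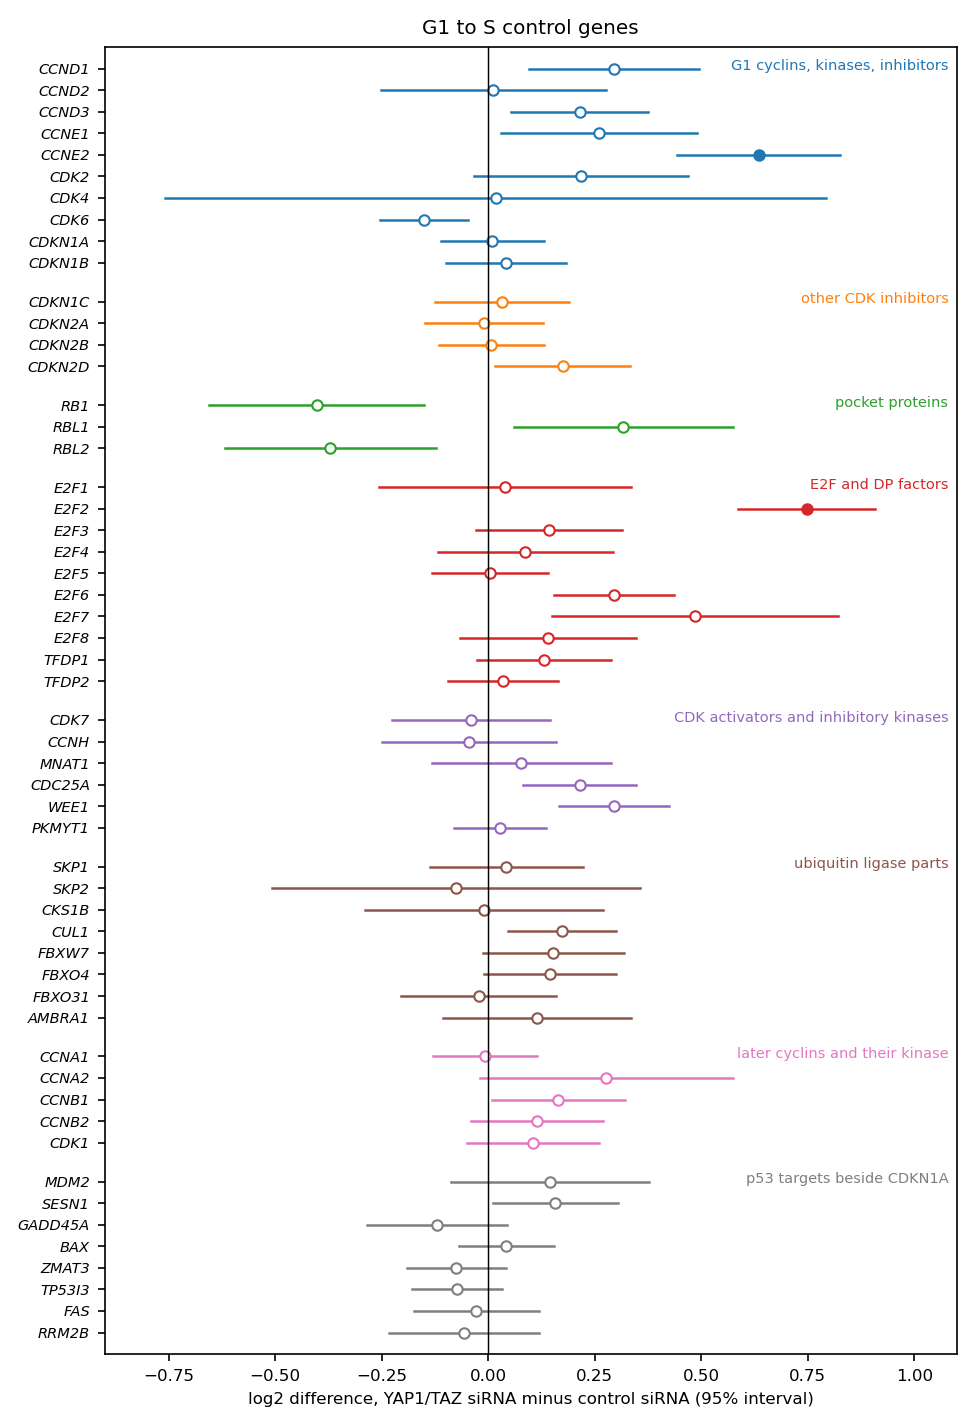
Log2 difference, YAP1/TAZ siRNA minus control siRNA, with 95% interval for the 10 genes (top group) and 44 further genes of the pathway by list; filled points have a limma adjusted p under 0.05. CCNE2 and E2F2 are the filled points, and CDK4 has an interval from −0.76 to 0.79.

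The genes whose profile over the 8 arrays, centred on its own mean, lay nearest to that of CCNE2 were WSB1, NR4A3 and DNAJC6. The root-mean-square difference was 0.086, 0.089 and 0.090 on the log2 scale, over 11201 other genes above the median level. WSB1, a subunit of a ubiquitin ligase, averaged 10.59 ± 0.11 in the YAP1/TAZ siRNA arrays and 9.88 ± 0.045 in the control arrays (SD, n = 4 per group). NR4A3, a nuclear receptor, averaged 5.75 ± 0.033 with the knockdown and 5.16 ± 0.053 with control siRNA. DNAJC6, the clathrin-uncoating factor auxilin, averaged 7.17 ± 0.10 with the knockdown and 6.62 ± 0.12 with control siRNA. All 3 were among the 48 genes that passed, which the choice by likeness to CCNE2 makes likely.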

How the data were processed

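RNA of 8 SK-N-MC cultures, 4 per siRNA group by sample title, was labelled with the GeneChip WT PLUS kit, per the labels' protocols. The authors deposited log2 signals, 1 per transcript cluster and array; the submitters' processing notes name Transcriptome Analysis Console, and the sources used here give neither its version nor the summary, the between-array normalization or the build. The log2 scale was read from the range of values, 2.27 to 19.93. Such summaries tend to compress fold changes near the lower end. Of 67528 clusters, 23781 with 1 platform symbol were used, with symbols updated through RefSeq (GRCh38.p14) and the highest-mean cluster kept for each of 22411 genes, with no filter. A limma model (version 3.58.1, R 4.3.3) with the siRNA group as its one term was fitted to all genes, with Benjamini-Hochberg adjustment over them. The fit was tested on simulated data whose noise was independent between genes, so that test did not cover arrays that stand apart over all genes. Related genes were compared by exact permutation in scipy 1.17.1. The members, lists, motifs and alternatives were chosen with earlier results of these data known. Named genes were the targeted genes, all members, each pathway list gene that passed and the smallest p of each pathway list. The 3 profiles nearest to a member that passed were named too. LIPI, PRKCB, E2F1, E2F5, E2F6, E2F7, TFDP2, RBL1, RBL2, CDKN2A, CDC25A, SKP2, FBXW7 and CCNA2 were added after their values were seen. The number of arrays limits precision.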

Additional observations from a re-analysis of the deposited data

Results flagged for a closer look

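In each of 24 groups of 4 arrays (the 10 members and the targeted genes), the highest or lowest array was checked for a gap to its neighbour that fills most of the group's range (Dixon's test), and chance alone flags about 1 in 20 groups. CDK4 on YAP1/TAZ siRNA replicate 2 read 11.62, far below the other knockdown arrays at 12.77 to 12.84. This is an array that stood apart over all genes. YAP1 on YAP1/TAZ siRNA replicate 1 read 6.27, below the other knockdown arrays at 6.4 to 6.42, and still below every control array.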

How the results depend on the processing

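The member count was 0 in place of 1 with the replicate block and with arrays centred on their median, and ran from 0 to 1 without single arrays. The count of all genes, 48, was 3 with the replicate block, 17 with arrays centred on their median, 82 among genes above the median level, 559 with array quality weights, 188 without both arrays that stood apart and 439 with those as a block; without single arrays it ran from 12 to 166. Same-numbered arrays deviated together in the first pair (correlation 0.37) but not in the others (−0.47, 0.016 and −0.39). YAP1/TAZ siRNA replicate 2 correlated most with control replicate 4 (0.61), and both stood apart over all genes, which weighs on these correlations. They therefore do not settle whether the numbers pair the cultures. The calls lost under the block are no measure of effect size. The sign of CCND2 turned after quantile normalization (−0.0348), as did that of CDKN1B (−0.0041), and CDKN1A turned with array quality weights (−0.0148). Without single arrays the difference ran from −0.0483 to 0.121 for CCND2, from −0.247 to 0.315 for CDK4 and from −0.0158 to 0.0342 for CDKN1A. The differences of CCND1, CCND3, CCNE1, CCNE2, CDK2 and CDK6 kept their sign under all alternatives run. The differences between related genes were recomputed with array centring and cluster averaging, which cannot change them, and without arrays. They moved by less than the SD pooled over both groups, but CCND1 minus CCND2 ran from 0.22 to 0.377 without single arrays, with an SD of 0.024 among controls. Without single arrays CDK4 minus CDK6 ran from −0.106 to 0.453 and CDKN1A minus CDKN1B from −0.095 to 0.0217; with 7 or 6 arrays the exact test cannot go below 0.0571 or 0.1. Why the counts moved was not tested. Signal over background was not analysed here, which limits what clusters of low or middle signal such as CDK6 and CDKN1A can show.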
